A study of Mus musculus with 2 samples.

Results

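Serpins are proteins of one fold. Most act as suicide inhibitors of serine proteases: the protease cuts an exposed loop of the serpin and is then trapped in an inactive complex. Others no longer inhibit proteases and carry hormones or chaperone other proteins. The liver secretes a large share of the serpins of blood plasma, among them antitrypsin, the inhibitors of thrombin, plasmin and complement, and the carriers of thyroid hormone and corticosteroids, while the serpins of clade b mostly stay inside cells.

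Chromatin accessibility at the Serpin genes was measured by ATAC-seq, in which the Tn5 transposase cuts open DNA and tags it for sequencing, so that the reads over a region follow how open it is. The members were the regions whose closest transcription start site (TSS), as assigned by the authors, belongs to a gene with a symbol that starts with Serpin, at any distance, apart from 1 gene that was not analysed here. They came to 108 of the 69549 distinct regions, at 35 genes. Of these, 26 regions at 22 genes lay with their centre within 1000 bp of the TSS and are called promoter regions, and 82 are called distal. The groups were *Mettl3* flox/flox mice, which carry floxed *Mettl3* alleles and no Cre, and *Mettl3*-HKO mice, which carry the same floxed alleles and 1 copy of Alb-Cre, a Cre recombinase driven by the albumin promoter and so active mainly in hepatocytes. *Mettl3* encodes the catalytic subunit of the RNA m6A methyltransferase. All were C57BL/6 mice of 8 weeks on normal chow. Liver tissue of 4 mice was pooled into 1 library per group, so there were no replicates, no test between groups was possible, and every difference below is between those libraries. Whole liver was used, and fewer cells of a type and less open chromatin per cell cannot be told apart.

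The libraries were scaled by the authors to totals of 52826202 reads (*Mettl3* flox/flox) and 58038305 reads (*Mettl3*-HKO), of which 31.7% and 22.3% lay on the regions. On this scale the log2 ratio, with *Mettl3*-HKO as the numerator throughout, had a median of −0.38 over all regions, −0.56 over all promoter regions and −0.27 over all distal regions, so a Serpin region at such a value moved with the table as a whole. Pairs of counts are always given with *Mettl3* flox/flox first. A range after a log2 ratio in parentheses is its 95% interval, from the exact Clopper-Pearson bounds on how the counts were shared between the libraries, and covers counting error only. A region was called higher or lower when it differed at least 2-fold. The promoter region of *Mettl3* itself had 566 counts in *Mettl3* flox/flox and 392 in *Mettl3*-HKO, a log2 ratio of −0.66, and no region was known to lie in the deleted part, so these data do not check the deletion. All 8 hepatocyte markers had a promoter region, with log2 ratios from −1.57 to 0.02. Of 8 endothelial markers 7 had one, all with log2 ratios above 0. The summed signal of these regions was 3.03 RPM (reads scaled to the library total) in *Mettl3* flox/flox and 7.01 in *Mettl3*-HKO. They were weak, with 11 (*Tek*) to 48 (*Clec4g*) counts in *Mettl3* flox/flox. Grouped by mean signal, the weakest regions of the table had a median log2 ratio of 1.55 and the strongest −0.62. Against regions of similar mean signal 6 of the 7 lay higher, at percentiles up to 94.45 (*Kdr*). The median difference over the 7 was 1.44, and *Eng* lay lower (−0.13). The promoters of the 8 lymphocyte markers held no region, and those of the Kupffer cell markers 1 for 8 genes (*C1qa*, 8 and 40 counts). Of the stellate markers 2 had one, *Reln* with 690 and 132 counts and *Col1a1* with 37 and 43. Cholangiocyte markers had 4 of 8, with log2 ratios from −0.52 to 1.19. The part of these cell types in the Serpin values was not tested.

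RefSeq promoter sequences (GRCm38.p6, 250 bases before to 50 after each start) matched 28 of the 35 genes, in 34 windows. Those with no entry include *Serpina10*, *Serpina3k*, *Serpina3m*, *Serpina6*, *Serpinb1a* and *Serping1*. The sequences below are the 150 bases just before a start, 5′ to 3′ on the gene's strand. The first set is the antitrypsin paralogs on chromosome 12 (minus strand), whose regions all had log2 ratios below 0. Capitals mark GTTAAT, the core letters of the site bound by HNF1, a transcription factor of hepatocytes. The stretches were chr12:103863620-103863769, chr12:103738190-103738339, chr12:103904951-103905100, chr12:103773634-103773783 and chr12:103956898-103957047.
Serpina1a: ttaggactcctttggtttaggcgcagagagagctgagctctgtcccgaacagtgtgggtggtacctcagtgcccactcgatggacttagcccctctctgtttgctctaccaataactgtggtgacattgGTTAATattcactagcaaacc
Serpina1b: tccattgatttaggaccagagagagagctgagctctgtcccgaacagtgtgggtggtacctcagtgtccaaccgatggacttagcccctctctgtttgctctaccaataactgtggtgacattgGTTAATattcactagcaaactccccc
Serpina1c: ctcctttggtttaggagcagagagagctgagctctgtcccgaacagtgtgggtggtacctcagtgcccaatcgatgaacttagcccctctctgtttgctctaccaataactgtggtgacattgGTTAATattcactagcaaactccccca
Serpina1d: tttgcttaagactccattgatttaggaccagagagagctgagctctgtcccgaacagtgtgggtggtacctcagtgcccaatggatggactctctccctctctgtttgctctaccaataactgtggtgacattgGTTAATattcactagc
Serpina1e: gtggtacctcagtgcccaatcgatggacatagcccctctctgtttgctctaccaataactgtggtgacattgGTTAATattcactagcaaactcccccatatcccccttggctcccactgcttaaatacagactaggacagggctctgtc

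The HNF1 letters began 16 to 27 bases before the start in *Serpina1a* to *Serpina1d* and 78 bases before it in *Serpina1e*, whose RefSeq start lies farther downstream in the shared sequence. Over 300 bases the windows of *Serpina1a* to *Serpina1d* were 85.2% to 91.4% identical, so reads could be split or lost between these genes and their counts are uncertain.

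The next pair is shown because the 7 regions of *Serpina7* all lay above 0 and the 5 regions of *Serpine2* were all at least 2-fold lower. *Serpina7* (chrX:139085220-139085369, minus strand, the downstream of its RefSeq starts) carries the same HNF1 letters 74 bases before the start, and a TATA box (TATAAA) 27 bases before it. *Serpine2* (chr1:79858666-79858815, minus strand) held none of the 7 motifs searched in this stretch and its window was 77.7% G and C, against 38.0% for *Serpina7*. Capitals mark the HNF1 letters, the TATA box and a C/EBP motif (TTGCNNAA on either strand).
Serpina7: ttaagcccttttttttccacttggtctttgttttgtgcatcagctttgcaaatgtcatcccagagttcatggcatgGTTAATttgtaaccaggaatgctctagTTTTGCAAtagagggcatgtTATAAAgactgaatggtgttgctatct
Serpine2: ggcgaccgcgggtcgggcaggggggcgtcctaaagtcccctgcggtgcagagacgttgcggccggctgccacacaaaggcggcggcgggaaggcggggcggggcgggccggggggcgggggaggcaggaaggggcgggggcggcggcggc

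The last pair comes from the antichymotrypsin paralogs, *Serpina3g* (chr12:104235997-104236146, plus strand) and *Serpina3i* (chr12:104262972-104263121, plus strand). Their promoter regions had a peak in *Mettl3*-HKO alone, so nothing is read from their higher ratios. Capitals mark a STAT motif (TTCNNNGAA), which began 33 and 102 bases before the start. In *Serpina3g* it lies outside the region, which begins at chr12:104236128. *Serpina3f*, also with a peak in *Mettl3*-HKO alone, held the motif 121 bases before a start and is not printed.
Serpina3g: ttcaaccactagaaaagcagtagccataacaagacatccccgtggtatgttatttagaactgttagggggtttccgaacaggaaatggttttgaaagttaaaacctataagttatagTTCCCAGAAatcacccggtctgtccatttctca
Serpina3i: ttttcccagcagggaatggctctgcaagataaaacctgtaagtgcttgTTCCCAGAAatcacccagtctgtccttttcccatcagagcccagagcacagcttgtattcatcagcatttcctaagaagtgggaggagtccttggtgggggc

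Across the 34 windows of 300 bases, searched on both strands, the HNF1 letters were in 26.5%, against 7.10% of all 32851 windows of the table. C/EBP (TTGCNNAA) was in 32.4% against 10.8%, STAT (TTCNNNGAA) in 26.5% against 8.30%, AP-1 (TGANTCA) in 23.5% against 7.81%, and the TATA box in 20.6% against 13.6%. The HNF4 motif (CAAAGTCCA) and the FOXA motif (TGTTTAC) were in none of them, and in 0.475% and 3.65% of all windows. Windows of paralogs share sequence and some genes have overlapping windows, so these shares are a description, and a match is not a bound site.

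Most Serpin regions had less signal in *Mettl3*-HKO. The median log2 ratio was −0.59 over the 26 promoter regions, close to −0.56 for all promoter regions, and −0.57 over the 82 distal regions, below the −0.27 of all distal regions. In all, 80 of the 108 regions lay below 0 (65 with the median of all regions set to 0, and 58 when scaled to the counts on regions). This was 74.1%, against 64.8% of all regions of the table. Below 0 lay 69.2% of the Serpin promoter regions against 83.9% of all promoter regions, and 75.6% of the distal ones against 59.8%. Of the promoter regions 5 were called lower and 5 higher. Of all promoter regions 16.3% were called lower and 4.07% higher. Of the distal Serpin regions 23 were called lower and 12 higher, where 18.8% and 15.6% of all distal regions were. Over both classes this made 28 lower and 17 higher, with 18.3% and 13.2% of all regions called. Each region was also set beside the 1000 other regions nearest to it in mean signal. The median difference was 0.03 for the promoter regions, which fell 13 on either side, and −0.14 for the distal regions, of which 33 lay above their neighbours in signal. The family as a whole therefore sat close to regions of equal signal, while single genes lay far from them on both sides.

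A region entered the table when a peak was called in either library, so a region with a peak in 1 library could enter through the library where it was higher. Peaks were called in both libraries for 67 Serpin regions, in *Mettl3* flox/flox alone for 24 and in *Mettl3*-HKO alone for 17. Among the 67, 14 were called lower and 5 higher, and 15.5% and 2.91% of all regions with a peak in both were so called. The 5 were *Serpina7*, with 4 regions, and *Serpina3k*, with 1. Of the 24 regions called in *Mettl3* flox/flox alone, 14 were at least 2-fold lower, as were 52% of all regions called there alone. Of the 17 regions called in *Mettl3*-HKO alone, 12 were at least 2-fold higher, as were 53.3% of all regions called there alone, and these had between 8 and 43 counts in *Mettl3* flox/flox. So 14 of the 28 lower calls and 12 of the 17 higher calls were made on regions that entered through the library where they were high. Ratios and differences of such regions are given below as values, and are marked as single-library peaks where a result turns on them.

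**Figure D1:**
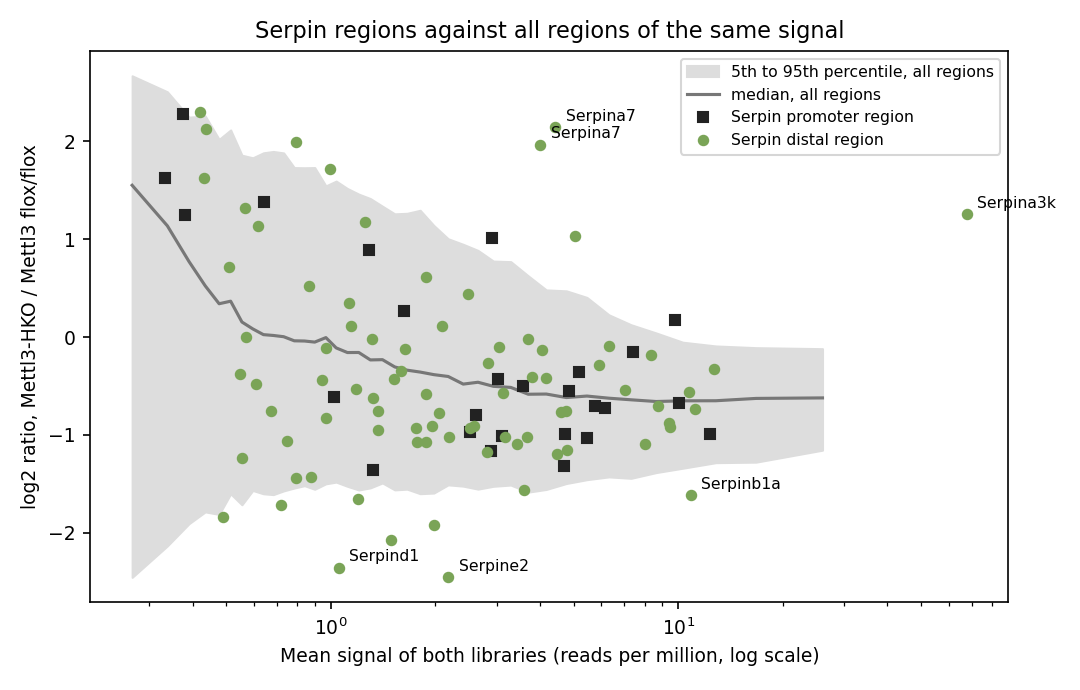
Log2 ratio of each Serpin region (vertical axis) against its mean signal in RPM on a log axis, with the median and the 5th to 95th percentile of all 69549 regions in 40 groups of equal size by signal. Squares are promoter regions and circles distal ones. The *Serpina3k* and *Serpina7* regions named lie above the grey band, and those of *Serpine2*, *Serpind1* and *Serpinb1a* below it.

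The clades differed in where their regions lay. Clade a, with most of the secreted serpins, had 64 regions at 18 genes, with a median of −0.43 over 16 promoter regions and −0.41 over 48 distal ones. Clade b had 3 promoter regions (median −0.43) and 20 distal ones (median −0.69). All promoter regions had a median of −0.56 and all distal ones −0.27. Scaled to the counts on regions, the medians of clade a became 0.08 (promoter) and 0.10 (distal). Those of clade b became 0.08 and −0.18. In clade e the 5 regions of *Serpine2* lay between −2.46 and −1.02 and the promoter region of *Serpine3*, with a single-library peak in *Mettl3*-HKO, at 1.25. All 6 regions of clade f lay between −1.57 and −0.80, the regions of clade d were at −1.16 and, with a single-library peak in *Mettl3* flox/flox, at −2.36, and the 3 of clade g lay between −0.99 and −0.09. Clade i had a single region, 50702 bp from *Serpini2*, with 37 and 29 counts. Clade h had none.

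**Figure D2:**
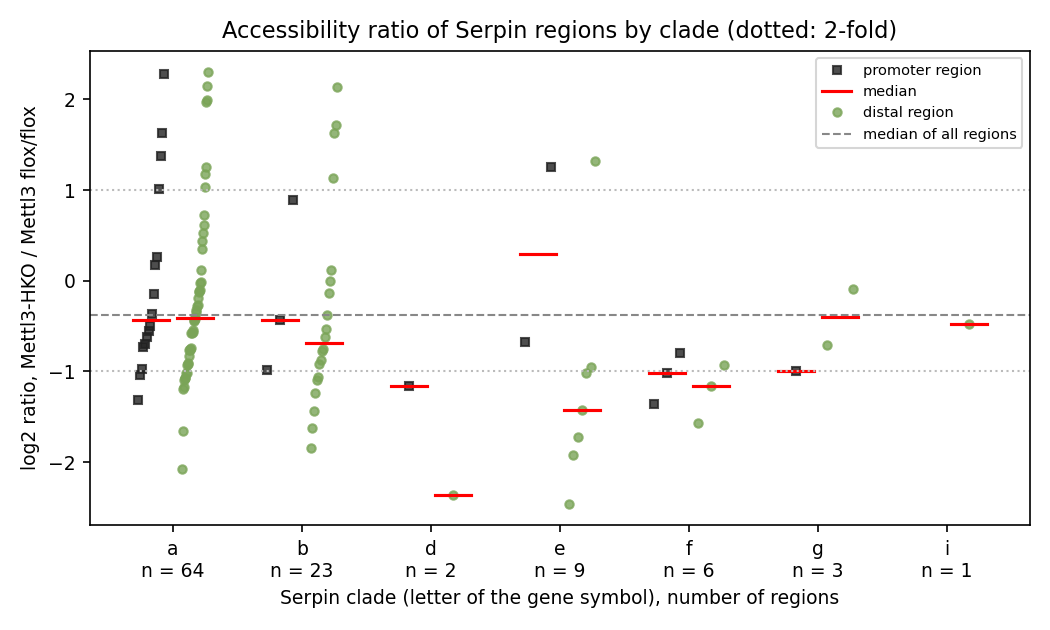
Log2 ratio of the 108 Serpin regions by clade, promoter regions as squares and distal ones as circles, with the median of each set in red, the median of all regions dashed and the 2-fold limits dotted. Regions of clades a and b spread to both sides of 0, and the 11 regions of clades d, f and g all lie below 0, 10 of them under the other scalings too, where 64.8% of all regions lie below 0.

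The antitrypsin paralogs had log2 ratios below 0 at all 22 regions, of which 18 stayed below 0 with the median of all regions set to 0 and 17 when scaled to the counts on regions. *Serpina1a* to *Serpina1e* encode antitrypsin, which inhibits neutrophil elastase. Their 22 regions had log2 ratios from −2.07 to −0.02 with a median of −0.84, and 10 were called lower and 0 higher, where 18.3% and 13.2% of all regions were. Of the 16 with a peak in both libraries 6 were called lower, against 15.5% of all such regions, and the other 4 calls had a peak in *Mettl3* flox/flox alone. Of all regions 64.8% lay below 0, and 20.6% of the 2011 named genes with at least 5 regions had every region below 0. Against regions of equal signal the median difference was −0.30 (−0.11 over the 16), and 8 of the 22 lay above them. The *Serpina1a* promoter region (chr12:103863441-103863941) had 391 counts in *Mettl3* flox/flox and 172 in *Mettl3*-HKO, a log2 ratio of −1.32 (−1.59 to −1.06). That of *Serpina1d* had 413 and 221 counts (−1.03, −1.28 to −0.80), and that of *Serpina1c* 309 and 231 (−0.55, −0.81 to −0.30). The intervals of *Serpina1a* and *Serpina1d* overlap, and that of *Serpina1c* overlaps the *Serpina1d* interval by a small margin and not the *Serpina1a* one. In *Serpina1b* the region over the RefSeq start (chr12:103737906-103738603), 2261 bp from the TSS the authors used, had 689 and 513 counts (−0.56, −0.73 to −0.39). *Serpina1e* had no region within 1000 bp of either start, and its intronic region at chr12:103955173-103955465 had 160 and 41 counts (−2.07, −2.63 to −1.60), the lowest of clade a, with a peak in *Mettl3* flox/flox alone. Each paralog had a region in its first or second intron between 3725 and 3831 bp from the RefSeq start, with log2 ratios from −1.20 in *Serpina1d* to −0.28 in *Serpina1b*. The HNF1 letters printed above for *Serpina1a* to *Serpina1d* lie inside the regions given here.

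The antichymotrypsin paralogs lay on both sides of 0. The mouse *Serpina3* genes, single in humans, include acute-phase proteins of plasma. Their 16 regions had a median log2 ratio of −0.15, which became 0.23 and 0.36 under the same scalings, with 0 called lower and 4 higher against 18.3% and 13.2% of all regions. The promoter regions of *Serpina3f*, *Serpina3g* and *Serpina3i* were weak, with 8, 9 and 20 counts in *Mettl3* flox/flox and 47, 33 and 59 in *Mettl3*-HKO, and none had a peak in *Mettl3* flox/flox. Their log2 ratios were 2.28 (1.32 to 3.71), 1.63 (0.64 to 2.99) and 1.38 (0.67 to 2.24). Nothing is read from these gains, since each region entered through *Mettl3*-HKO. The stronger promoters of the locus had log2 ratios from −0.97 to 0.17. *Serpina3m* had 388 and 262 counts (−0.70) at −72 bp and 416 and 276 (−0.73) at −970 bp, and *Serpina3n*, an acute-phase gene, had 185 and 103 (−0.97, −1.34 to −0.63).

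*Serpina3k* held the region with the largest gain of the family. It spans chr12:104345107-104348710, begins in the last intron and runs 2566 bp past the annotated end of the gene. At 3604 bp it was the second longest of all 69549 regions. It had 2309 counts in *Mettl3* flox/flox and 6060 in *Mettl3*-HKO, or 43.7 and 104 RPM, a log2 ratio of 1.26 (1.19 to 1.33). Its gain of 60.7 RPM was second among all regions, behind 211 RPM at *Gm10800*, where the log2 ratio was 0.21. Whether repeats or the mapping of reads play a part in this gain was not tested. Per length the signal was 12.1 and 29.0 RPM per kb. The promoter region of *Serpina3k* (chr12:104338095-104338708) had 487 and 602 counts, a log2 ratio of 0.17 with an interval that reached just below 0 and up to 0.35, and a region 1503 bp before the TSS had 749 and 656 counts (−0.33). The 3 regions of the gene differed from regions of equal signal by 1.87, 0.82 and 0.34. This region held 25.9% of all Serpin counts in *Mettl3*-HKO and 9.17% in *Mettl3* flox/flox.

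The members on chromosome 12 were 57 regions over 808 kb, with a median of −0.50. The 28 other regions in the same span, assigned to genes without a symbol in the file, had a median of 0.11, and 7 of them overlap a Serpin gene.

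**Figure D3:**
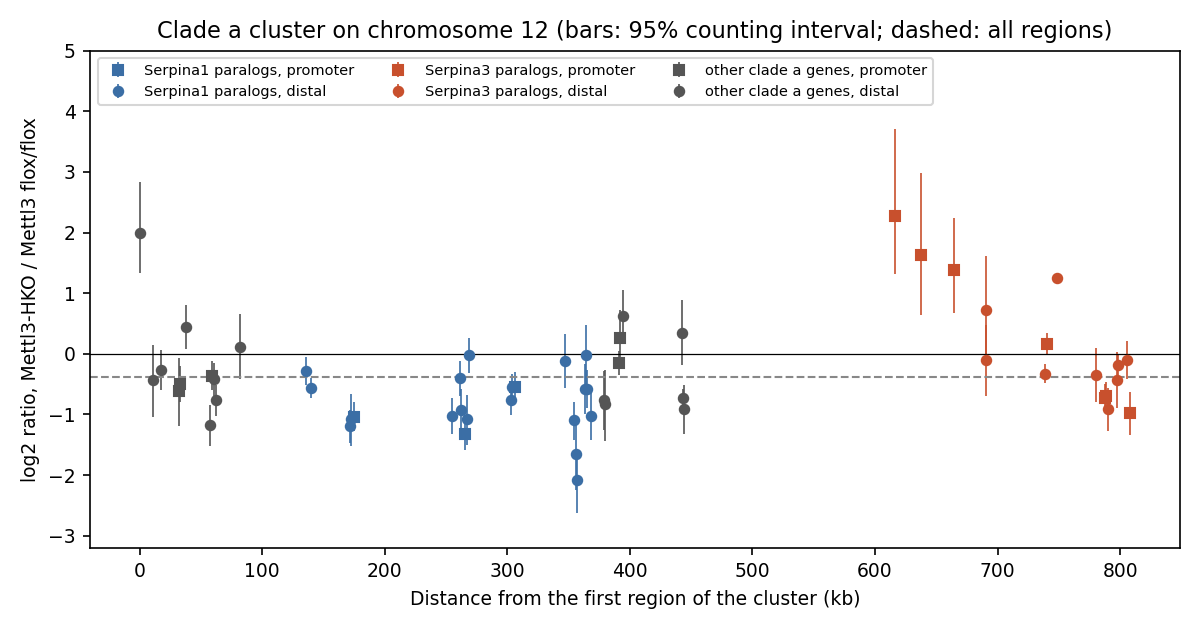
Log2 ratio of the 57 clade a regions on chromosome 12 against their distance in kb from the first one, with 95% counting intervals, squares for promoter regions, circles for distal ones and the median of all regions dashed. The antitrypsin paralogs in blue all lie below 0 on this scale, and the antichymotrypsin paralogs in red run from 2.28 at *Serpina3f* to −0.97 at *Serpina3n*.

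Of the hormone carriers, that of thyroid hormone had log2 ratios above 0 at every region under each scaling, 6 of 7 of them called higher (4 of 5 with a peak in both libraries, where 2.91% of all such regions were, and 2 with a peak in *Mettl3*-HKO alone), and that of corticosteroids had them below 0, except that its promoter region lay at 0.02 with the median of all regions set to 0, and its promoter region and the one at −2189 bp lay at 0.15 and 0.09 when scaled to the counts on regions. *Serpina7* encodes thyroxine-binding globulin. Its promoter region (chrX:139084888-139085487), which covers the sequence printed above, had 107 counts in *Mettl3* flox/flox and 238 in *Mettl3*-HKO, a log2 ratio of 1.01 (0.68 to 1.36). The region 7004 bp downstream of the TSS had 110 and 539 counts, or 2.10 and 9.30 RPM, a log2 ratio of 2.15 (1.86 to 2.47). Regions 43926 and 45671 bp downstream had 106 and 459 counts (1.97, 1.67 to 2.30) and 185 and 417 counts (1.03, 0.78 to 1.29). The weaker ones had 9 and 53 counts (2.30) and 43 and 108 (1.17), the single-library peaks, and 37 and 59 (0.52, with an interval from −0.08 to 1.17). All 7 regions lay above 0, over 47.2 kb, and above regions of equal signal by 0.57 to 2.76. Counting regions with a peak in both libraries, 6 of the 866 named genes with at least 5 of them, or 0.693%, had all of them above 0, *Serpina7* among them. Upstream the next region, 4.27 kb away and closest to *4930513O06Rik*, had 129 and 141 counts (−0.01, −0.36 to 0.35). Downstream the next one lay 599.8 kb away, with 686 and 904 counts (0.26, 0.12 to 0.41). The median of the 1733 other regions of the X chromosome was −0.54. Leaving out *Serpina7*, 11 of the remaining 101 Serpin regions were called higher, or 10.9% against 13.2% of all regions.

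*Serpina6* encodes corticosteroid-binding globulin. Its promoter region had 310 and 265 counts (−0.36, −0.60 to −0.12), above regions of equal signal by 0.26. Its intronic region 1440 bp away had 223 and 108 (−1.17, −1.53 to −0.84), with a peak in *Mettl3* flox/flox alone. *Serpina10*, which with protein Z inhibits activated coagulation factor X, had promoter regions of 224 and 174 counts (−0.50) and 66 and 47 counts (−0.62). The weaker of these had a peak in *Mettl3* flox/flox alone. A region 32765 bp away, inside *Ppp4r4*, had 20 and 91 counts (2.00, 1.34 to 2.83), with a peak in *Mettl3*-HKO alone. *Serpina11* had 77 and 102 counts (0.27, −0.17 to 0.72) and 411 and 407 counts (−0.15, −0.35 to 0.05), neither apart from 0 beyond counting error. *Serpina12* encodes vaspin and had its strongest region in intron 1, with 760 and 501 counts (−0.74). *Serpina16* and *Serpina3j* had a single distal region each, with 57 and 68 and with 52 and 53 counts.

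The inhibitors of thrombin, plasmin and complement and *Serpinf1* had log2 ratios below 0 at all 5 of their promoter regions, under each scaling, where 83.9% of all promoter regions lay below 0. *Serpind1* encodes heparin cofactor II, a thrombin inhibitor. Its promoter region (chr16:17331082-17331505) had 227 and 111 counts (−1.16, −1.51 to −0.83). A region 1284 bp before the TSS (chr16:17329934-17330240), in an intron of *Pi4ka*, had 125 and 26 counts, a log2 ratio of −2.36 (−3.07 to −1.78), 5.13 times lower in *Mettl3*-HKO, with a peak in *Mettl3* flox/flox alone. *Serpinf2* encodes antiplasmin, the main inhibitor of plasmin. Its promoter regions had 232 and 126 counts (−1.01, −1.34 to −0.70) and 181 and 114 counts (−0.80), and a region 4471 bp before the TSS, inside *Wdr81*, had 325 and 120 (−1.57, −1.89 to −1.27). *Serpinf1* encodes pigment epithelium-derived factor, a clade f protein that does not inhibit proteases, and its regions had 111 and 47 counts at the promoter (−1.36, −1.90 to −0.87, with a peak in *Mettl3* flox/flox alone), 377 and 185 in intron 1 (−1.16) and 127 and 73 at 20134 bp from the TSS, inside *Smyd4* (−0.93). *Serping1* encodes the inhibitor of the complement protease C1. Its promoter region (chr2:84774678-84776039) was the strongest Serpin promoter by mean signal, with 917 and 506 counts or 17.4 and 8.74 RPM (−0.99, −1.15 to −0.84). In *Mettl3*-HKO the *Serpina3k* promoter region was stronger, with 602 counts or 10.4 RPM. Distal regions of *Serping1* had 590 and 397 counts (−0.71) and 345 and 355 (−0.09, −0.31 to 0.12). Against regions of equal signal the promoters with a peak in both libraries lay lower by 0.66 for *Serpind1*, 0.52 and 0.34 for *Serpinf2* and 0.32 for *Serping1*.

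**Figure D4:**
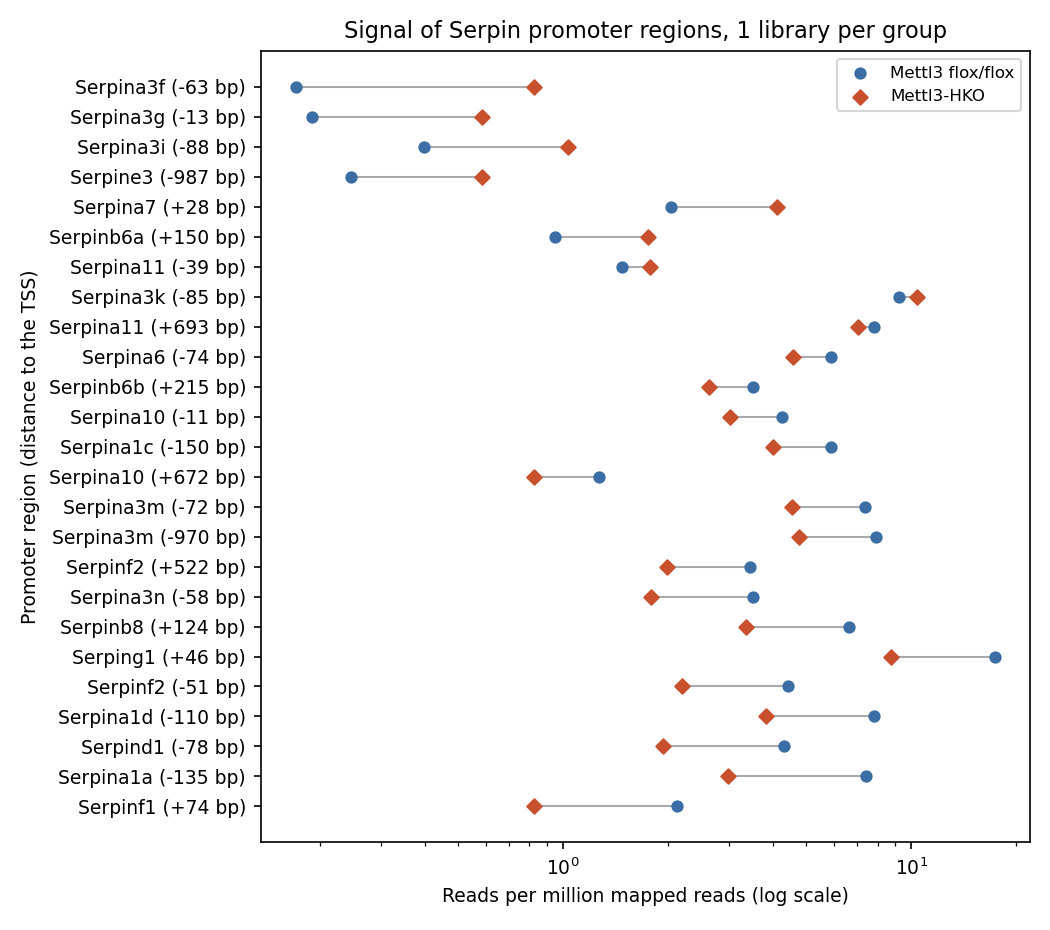
Signal of Serpin promoter regions in RPM (log axis), circles for *Mettl3* flox/flox and diamonds for *Mettl3*-HKO, ordered by log2 ratio, with 1 library per group and so no error bars. The 5 regions highest in ratio are *Serpina3f*, *Serpina3g*, *Serpina3i*, *Serpine3* and *Serpina7*, and 4 of them are the weakest in *Mettl3* flox/flox. The lowest are *Serpinf1*, *Serpina1a*, *Serpind1*, *Serpina1d* and *Serpinf2*.

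In clade e, *Serpine2* was called lower at each of its 5 regions, and all stayed below 0 under each scaling. Peaks were called in both libraries at 2 of the 5, those with 237 and 202 counts in *Mettl3* flox/flox, and in *Mettl3* flox/flox alone at the other 3. Of all regions 18.3% were called lower. The share was 15.5% with a peak in both libraries and 52% with a peak in *Mettl3* flox/flox alone. Of the 2011 named genes with at least 5 regions, 17 (0.845%) were called lower at every region. *Serpine2* encodes protease nexin, an inhibitor of thrombin and urokinase at cell surfaces. The region over the RefSeq start printed above (chr1:79858104-79859015) had 269 counts in *Mettl3* flox/flox and 53 in *Mettl3*-HKO, a log2 ratio of −2.46 (−2.93 to −2.05), 5.49 times lower. It counts as distal here because the authors placed the TSS 38255 bp away. The others had 237 and 128 counts (−1.02), 202 and 58 (−1.92, −2.38 to −1.51), 75 and 30 (−1.43) and 68 and 22 (−1.72). The nearest other regions had 765 and 344 counts (*Mrpl44*, −1.29) on 1 side and 5 and 37 counts on the other. *Serpine3* had 12 and 33 counts at −987 bp (1.25, 0.33 to 2.41), with a peak in *Mettl3*-HKO alone.

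**Figure D5:**
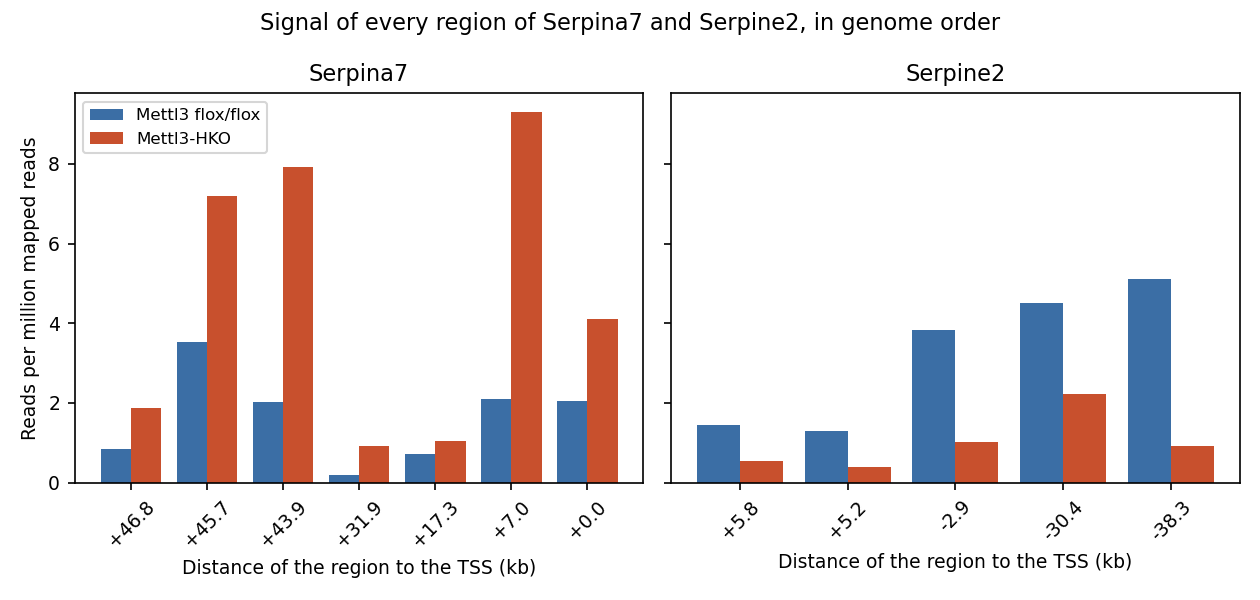
Signal in RPM in *Mettl3* flox/flox (blue bars) and *Mettl3*-HKO (red bars) at each region of *Serpina7* (left) and *Serpine2* (right) in genome order, labelled by distance to the TSS in kb, with 1 library per group and so no error bars. The red bar is the taller at all 7 *Serpina7* regions and the shorter at all 5 *Serpine2* regions.

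The intracellular serpins of clade b, many of which protect cells from granule and lysosomal proteases, had 16 of 23 regions below 0 (69.6%, against 64.8% of all regions), with 6 called lower and 4 higher, against 18.3% and 13.2% of all regions. Of the 13 with a peak in both libraries 2 were called lower and 0 higher, and the other 4 lower calls had a peak in *Mettl3* flox/flox alone. The promoter regions were those of *Serpinb8*, a furin inhibitor, with 349 and 193 counts (−0.99, −1.25 to −0.73), *Serpinb6b* with 185 and 151 (−0.43, −0.75 to −0.11) and *Serpinb6a* with 49 and 101 (0.89, 0.40 to 1.43). The other RefSeq start of *Serpinb6a* lay under a stronger region assigned to *Ripk1* (chr13:34001984-34003017), with 682 and 486 counts (−0.62, −0.80 to −0.45). The strongest clade b region by mean signal (chr13:32827171-32828232), 23484 bp from *Serpinb1a*, an inhibitor of neutrophil elastase, had 1005 and 359 counts (−1.62, −1.80 to −1.45), while the intronic region of the gene had 224 and 224 (−0.14, −0.41 to 0.14). In *Mettl3*-HKO distal regions of *Serpinb6b* (401 counts) and *Serpinb8* (399) were stronger. At *Serpinb9*, the granzyme B inhibitor, the single region (chr13:33004121-33005042) lay over the RefSeq start and had 617 and 318 counts (−1.09, −1.29 to −0.89). A region 24183 bp from *Serpinb8* had 48 and 14 counts (−1.84, with a peak in *Mettl3* flox/flox alone), and the strong one 24168 bp on the other side 689 and 399 (−0.92). The 4 regions called higher were weak and had a peak in *Mettl3*-HKO alone. *Serpinb1c* had 10 and 52 counts (2.13, 1.25 to 3.38), *Serpinb2* 28 and 104 (1.72) and 21 and 52 (1.13), and *Serpinb1b* 12 and 43 (1.62). Against regions of equal signal the 20 distal regions of clade b had a median difference of −0.39, and the 10 of them with a peak in both libraries one of −0.39.

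Of 53 Serpin genes with a RefSeq start, 32 had no region within 1000 bp of it, 21 of them among the 26 genes of clade b. These include *Serpinb3a*, *Serpinb5*, *Serpinb7*, *Serpinb11* and *Serpinb12*, best known from epithelia, and *Serpinh1*, the collagen chaperone. No peak was called there in either library, which does not show that the sites are closed.

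Split by a list of serpins that the liver secretes into plasma, the 18 promoter regions of 14 listed genes had a median log2 ratio of −0.71, with 5 called lower and 1 higher (*Serpina7*), where all promoter regions had a median of −0.56 and 16.3% and 4.07% called. The 8 promoter regions of the other genes ranged from −0.99 to 2.28, with 0 lower and 4 higher. Those 4, at *Serpina3f*, *Serpina3g*, *Serpina3i* and *Serpine3*, entered the table through a peak in *Mettl3*-HKO alone, so nothing is read from the higher values of this set. The listed genes ranged from −1.36 to 1.01. Distal regions had medians of −0.49 over 48 regions of listed genes and −0.74 over 34 of the others, which include *Serpine2*.

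The target proteases and partners of the serpins lay near the promoter regions of the table. Of 26 genes listed, 21 had a promoter region, the median log2 ratio of the strongest one per gene was −0.71 against −0.56 for all promoter regions, and 18 were below 0, or 85.7% against 83.9%. Of all promoter regions 16.3% were called lower and 4.07% higher. The 5 called lower were *Vtn*, which encodes vitronectin (339 and 121 counts, −1.61), *F7* (770 and 327, −1.37), *Tmprss6* (412 and 213, −1.08), *Proc* (582 and 313, −1.03) and *F10* (2046 and 1110, −1.02). The 2 called higher were weak regions, at *Plau* with 16 and 42 counts (1.20) and at its receptor *Plaur* with 14 and 45 (1.48). Among regions of equal signal they lay at the 79.65 and 85.8 percentiles, and nothing is read from these gains. *F2*, which encodes prothrombin, had 447 and 262 counts (−0.90), and *Plg*, which encodes plasminogen, 953 and 640 (−0.71). Their median difference from regions of equal signal was −0.07, with 7 of the 21 above them.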

How the data were processed

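ATAC-seq of 1 pooled library per group (4 mice each) was used. Per the study's methods, the authors used skewer for trimming, BWA for alignment and MACS2 for peaks, without removing duplicates, on proper pairs outside the mitochondrial genome and above a mapping quality limit. The counting of reads on the merged regions, and any Tn5 shift, is not given in the sources used here. For each region the authors deposited raw counts per library, RPM (count plus 1, scaled to the library total), the fold enrichment as a ratio, and the log2 ratio of RPM. Their log2 and fold columns were not used as results.

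Of 74821 rows, 69549 were distinct regions. The log2 ratio was recomputed from counts with 1 added, on library totals recovered from RPM. Starts count from 1, on GRCm38. No p-value was computed. The members and lists were chosen with earlier results of these data known, and single values of some Serpin genes are not reported here. Apart from these, each gene with a promoter region was named. Distal regions named were, per clade, the strongest and those of highest and lowest ratio with at least 50 counts, and those past 4-fold. Other distal regions in the text were chosen after their values were seen. The functions were tested on simulated counts. Alternatives concerned scaling, added counts, promoter window, count minimum, fold threshold and the regions of equal signal. Intervals cover counting error only, and whether the counts include duplicate reads is not given in the sources used here. Python 3.11.15, numpy, pandas, scipy, Biopython and matplotlib were used.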

Additional observations from a re-analysis of the deposited data

How the results depend on the processing

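No paired analysis was possible because each group had 1 library. The scaling moved the medians, and both the scaling and the call rule moved the number of lower regions. Centring on the median of all regions (a shift of 0.38) gave a median log2 ratio of −0.21 for the promoter regions, and left 11 regions at least 2-fold lower. Scaling to the counts on regions (a shift of 0.51) gave −0.074 for promoter and −0.056 for distal regions, and left 9 regions lower. Of all regions, 7.89% and 5.75% were then lower and 20.0% and 22.9% higher. No Serpin region past 2-fold changed sign under these scalings or with 10 counts added, but of the 30 named regions below 0, 3 lay above 0 after centring and 6 after scaling to counts on regions. A threshold of 1.5-fold gave 52 lower regions (48.1%, against 38.8% of all regions), and intervals that left out 0 gave 65 (60.2%, against 48.7%). The number higher stayed between 12 and 21 under the alternatives run. With RefSeq start sites added to those of the authors, chosen after seeing the data, the median was −0.64 for promoter regions (−0.59 without them). For distal regions it was −0.54 (−0.57 without them). Depth limits the weak regions: 106 of the 108 had at least 50 counts in both libraries together, and with 1 library per group the difference between mice is unknown.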

Other observations

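There were 10 regions that the authors listed as overlapping a Serpin gene but that were closest to the TSS of another gene and so were not members. *Serpina9*, a serpin of germinal-centre B cells, had 3 of them, with 40 and 114 counts (1.35, 0.84 to 1.93), 18 and 66 (1.68, 0.97 to 2.58) and 56 and 68 (0.14, −0.39 to 0.68) in *Mettl3* flox/flox and *Mettl3*-HKO. A region at the end of *Serpina1c* had 47 and 105 counts (1.01, 0.51 to 1.55), and the one next to it 157 and 175 (0.02). This differs in sign from the 22 regions assigned to the antitrypsin paralogs, all of which were below 0, and the difference was not tested. *Serpina12* had 190 and 158 counts (−0.40) and *Serpina5* 155 and 134 (−0.34). *Serpinf2* had 154 and 58 (−1.53, −2.01 to −1.10), and *Serpinb5* had 15 and 31 (0.86, −0.02 to 1.91). The start of *Serpini1*, which encodes neuroserpin, lay under a region assigned to *Pdcd10*, with 3097 and 2054 counts (−0.73, −0.81 to −0.65).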
